A study of Mus musculus with 24 samples.

Results

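Betacellulin (Btc) and the epidermal growth factor receptor (Egfr) are a ligand and its receptor, and both were measured in mouse retina on an array focused on glycan-related genes. They are 2 of the 909 genes that could be named on the array. Every probe set whose transcript accession mapped to either gene was taken: 1 for Btc (NM_007568.4) and 2 for Egfr (NM_207655.2 and NM_007912.4). The names of these 3 probe sets carry no suffix for probes shared with other transcripts. The pair was chosen because earlier results on the same arrays showed a genotype difference in Btc at 1 month, so differences between genotypes in these genes are described here without a test.

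The retinas came from mice labelled P347S+ (retinitis pigmentosa mutant mice, a transgenic model, called mutant below) and from mice labelled P347S- (called normal). Animals were 1, 2, 3 or 4 months old. Each genotype and age had 3 arrays, 24 in 8 groups. Total RNA of whole retina was used in all groups. Strain and the promoter of the transgene are not given in the labels, and sex is recorded as unknown. According to the series description, rod loss is barely visible at 1 month and extensive at 4 months. Nothing in the labels ties the arrays of a group to separate animals, so each p-value measures the spread between samples, which may be technical.

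Betacellulin is made as a precursor in the cell membrane, and the extracellular part is shed by a metalloprotease to act on nearby cells. It binds the EGF receptor and also ErbB4. The EGF receptor is a tyrosine kinase that pairs with itself or with other ErbB receptors and signals through the Ras and MAP kinase pathway, among others. In the rodent retina it is known from progenitor cells and Müller glia. Mouse Egfr has a RefSeq transcript for the full-length receptor, NM_207655, and one for a shorter form, NM_007912, which lacks the transmembrane and kinase parts. Where each probe set lies in its transcript is not given in the sources used here, so neither probe set can be read as 1 isoform alone.

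The windows just upstream of the RefSeq starts of both genes are shown because the transcripts of these genes differed in their time course; the arrays measured RNA and not these sequences. Each is 250 bases long, from RefSeq on build GRCm38.p6, read 5′ to 3′ on the gene's strand. The Btc window is chr5:91402995-91403244 on the minus strand and the Egfr window is chr11:16751953-16752202 on the plus strand. Capitals mark motif matches.
Btc: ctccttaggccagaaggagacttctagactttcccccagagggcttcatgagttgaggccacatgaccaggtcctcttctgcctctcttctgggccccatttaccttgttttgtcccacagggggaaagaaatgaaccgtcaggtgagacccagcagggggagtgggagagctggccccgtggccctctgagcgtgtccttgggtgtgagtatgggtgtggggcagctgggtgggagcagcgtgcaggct
Egfr: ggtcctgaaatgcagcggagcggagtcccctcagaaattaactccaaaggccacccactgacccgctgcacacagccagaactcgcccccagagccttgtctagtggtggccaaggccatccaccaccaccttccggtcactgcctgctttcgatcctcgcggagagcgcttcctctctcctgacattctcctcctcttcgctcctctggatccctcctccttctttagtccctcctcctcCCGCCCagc
Both strands were searched for TGANTCA (AP-1), TGACGTCA (CRE), TTCNNNGAA (STAT) and GGGCGG (GC box). The only match was 1 GC box in the Egfr window, 9 to 4 bases before the start. Of 32851 such windows 32.7% held a GC box, 6.75% the AP-1 letters, 1.55% the CRE letters and 7.02% the STAT letters. No overlap between motifs arose in the windows shown. The Btc window held 4 CpG dinucleotides and 59.6% G or C, and the Egfr window 11 and 60.8%.

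Values are log2 RMA signals, a scale on which a difference of 1 is a doubling of signal. Array medians lay between 5.15 and 5.34. In 3 arrays Grifin, a gene known from the lens, read above 10 on the log2 scale: normal at 2 months replicate 2, mutant at 2 months replicate 2 and normal at 4 months replicate 1. The next highest readings were 8.77 in normal 1-month replicate 1, then 7.64 and 7.47 in mutant 2-month replicates 3 and 1. Of the 9 rod markers listed only Gnb1, a G protein subunit that is not restricted to rods, was measured, so the retinal identity of the tissue and the amount of rods could not be checked on these arrays. In whole tissue, a change in the number of cells of a type and a change in RNA per cell cannot be told apart.

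Betacellulin was far above the normal level in mutant retinas at 1 month, the youngest age. The 3 mutant arrays at 1 month read 9.13, 8.91 and 8.83, and the normal arrays read 6.82, 6.91 and 6.91. The groups did not overlap, and the lowest mutant array lay 1.92 above the highest normal one. The difference was 2.08 ± 0.25 (log2, limma SE, n = 3 against 3), a 4.22-fold higher signal. It was the second largest rise among 1246 probe sets at that age.

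At 2 months the mutant group was spread widely. Its arrays read 8.30, 9.05 and 7.37, against 6.67, 6.60 and 7.00 in normal retinas. All mutant arrays stood above all normal arrays of that age, but replicate 3 exceeded the highest of them by 0.37 and lay inside the range of normal retinas over all ages (6.60 to 7.46). The SD of the mutant group was 0.84, against 0.05 to 0.29 in the mutant groups of the other ages. The difference was 1.48 ± 0.25, a 2.80-fold higher signal, and it was 1.92 without replicate 3 of the mutant group. Leaving out the 3 Grifin-high arrays, which include the mutant array at 9.05, gave 1.00.

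Replicate 3 of the 2-month mutant group was low for some other genes too. Adgre1, a microglial surface receptor, read 3.69 there, against 4.18 and 4.75 in the other 2-month mutant arrays and 3.33 to 3.77 in the 12 normal arrays. Icam1, an adhesion molecule of inflamed tissue, read 4.18 there, against 4.76 and 4.70 in the other arrays of its group and at most 4.16 in normal arrays. Other genes read as in mutant retinas. Sulf1, a sulfatase of heparan sulfate, read 8.92 there, above all normal arrays (8.18 to 8.62), and Csf1r, a receptor of microglia, read 7.65, against 6.36 to 7.16 in normal arrays. No value on these arrays settles whether the genotype label of this array is right, so the mutant values at 2 months carry that doubt. The array was kept under its label, and values without it are given beside the differences at 2 months, the F test of Btc in normal retinas, the correlation of Btc with the receptor and the closest patterns.

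At 3 months the mutant arrays read 8.74, 8.64 and 8.67 and the normal arrays 7.13, 7.28 and 7.46. The difference was 1.40 ± 0.25, which is 2.63-fold. At 4 months the mutant arrays read 8.98, 8.44 and 8.89 and the normal arrays 7.27, 7.42 and 7.46, a difference of 1.39 ± 0.25 and 2.61-fold. At neither age did the genotypes overlap. Betacellulin was thus high in mutant retinas at each of the 4 ages, with its largest difference at 1 month. The differences at 3 and 4 months were 67.2% and 66.8% of that at 1 month on the log2 scale, while that at 2 months ranged from 1.00 to 1.92 with the arrays used. Within mutant retinas the signal at 4 months differed from that at 1 month by -0.19 ± 0.25. Within normal retinas it differed by 0.50 ± 0.25, which did not pass (limma adjusted p = 0.684). In these means the smaller difference at 4 months lay in both genotypes. Whether the Btc difference changed with age was not tested.

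**Figure D1:**
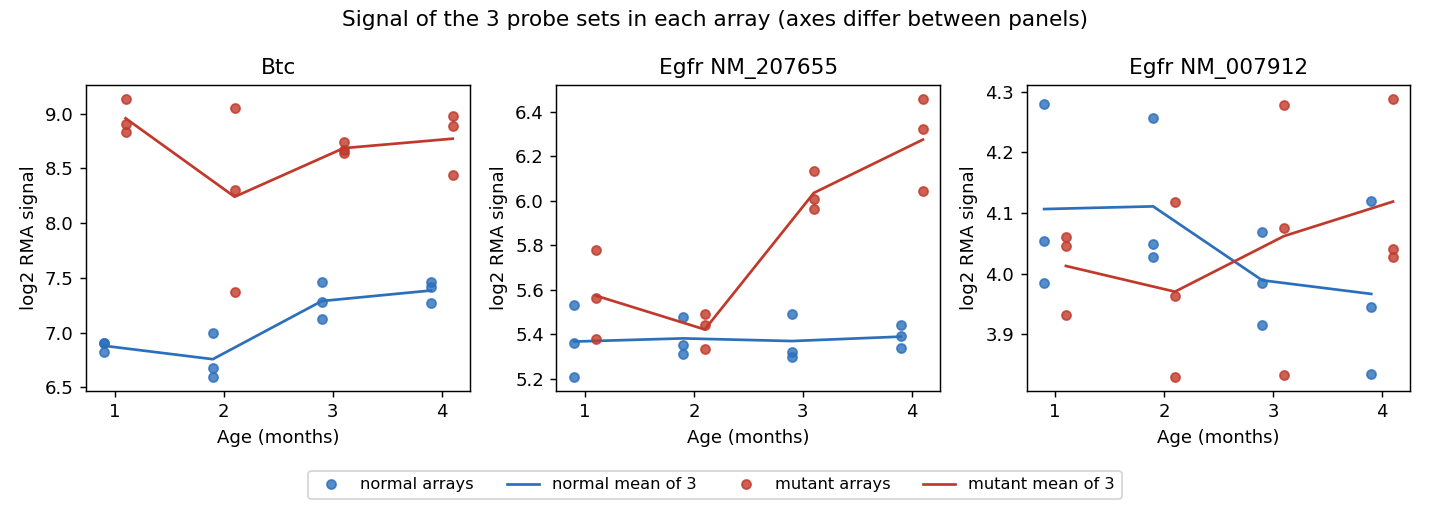
Log2 RMA signal of Btc and of both Egfr probe sets in each array against age in months, with normal arrays in blue, mutant arrays in red and lines through the means of 3 arrays. Btc is higher in mutant retinas from 1 month on, Egfr NM_207655 separates only at 3 and 4 months, and Egfr NM_007912 lies between 3.83 and 4.29 in all arrays; the vertical axes differ between panels.

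The Egfr probe set named for the full-length transcript, NM_207655, followed another course. At 1 month it read 5.38, 5.78 and 5.56 in mutant and 5.36, 5.21 and 5.53 in normal retinas. The groups overlapped, with a difference of 0.21 ± 0.11, and mutant replicates 2 and 3 lay above all 3 normal arrays. At 2 months the mutant arrays read 5.49, 5.44 and 5.33 and the normal arrays 5.31, 5.48 and 5.35, overlapping again (0.04 ± 0.11, and 0.08 without mutant replicate 3).

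From 3 months on the signal of Egfr NM_207655 was higher in mutant retinas. At 3 months the mutant arrays read 6.01, 5.96 and 6.13 and the normal arrays 5.32, 5.30 and 5.49. The groups no longer overlapped, and the difference was 0.67 ± 0.11, a 1.59-fold higher signal. At 4 months the mutant arrays read 6.46, 6.32 and 6.05 and the normal arrays 5.34, 5.39 and 5.44, with a difference of 0.88 ± 0.11 (1.85-fold).

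The later separation lay in the mutant values. All 6 mutant arrays of 3 and 4 months (5.96 to 6.46) lay above all 6 mutant arrays of 1 and 2 months (5.33 to 5.78), a separation seen in 41 of 1246 probe sets (3.29%). Normal arrays stayed between 5.21 and 5.53 throughout. Among all rises the difference of Egfr NM_207655 stood in place 106 at 1 month and 509, 37 and 15 at the later ages. Btc held places 2, 2, 3 and 4 at those ages.

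The small differences of Egfr NM_207655 at the first 2 ages had no stable size. With 1 array left out the difference was 0.10 to 0.30 at 1 month and 0.0059 to 0.088 at 2 months, and with Grifin and Dcn as covariates it was -0.018 at 2 months. The Btc difference exceeded that of Egfr NM_207655 by 1.87, 1.44, 0.73 and 0.50 from 1 to 4 months. These are differences between genotypes, each within its own probe set, and say nothing on which of the genes had more RNA. Both courses use the same 24 arrays.

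**Figure D2:**
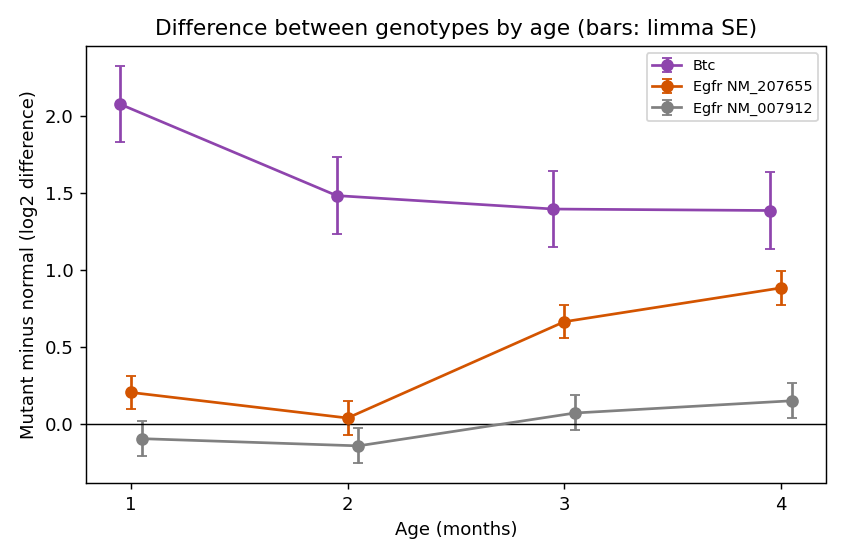
Mutant minus normal log2 difference of each probe set against age in months, with limma standard errors. The Btc difference is largest at 1 month (2.08) and near 1.4 at 3 and 4 months, that of Egfr NM_207655 goes from 0.04 at 2 months to 0.88 at 4 months, and that of Egfr NM_007912 stays between -0.14 and 0.15.

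The second Egfr probe set, NM_007912, showed no separation of the genotypes at any age. From 1 to 4 months mutant arrays read 3.93 to 4.06, 3.83 to 4.12, 3.83 to 4.28 and 4.03 to 4.29. Normal arrays read 3.99 to 4.28, 4.03 to 4.26, 3.91 to 4.07 and 3.83 to 4.12. The genotypes overlapped at every age. The differences were -0.09 ± 0.11, -0.14 ± 0.11, 0.07 ± 0.11 and 0.15 ± 0.11 from 1 to 4 months, and -0.21 at 2 months without mutant replicate 3. Their order over the ages was that of NM_207655, lowest at 2 months and highest at 4 months. Their sizes were close to their standard errors, so whether both probe sets share a course cannot be told.

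This probe set was also dim. Its mean over all arrays was 4.04, above 29.5% of the probe sets, whereas NM_207655 had a mean of 5.60 (above 55.8%) and Btc 7.87 (above 77.8%). Background is not known for these arrays, so a flat reading at this level does not show that the RNA it targets was unchanged.

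Of all probe sets, 10.4%, 9.07%, 13.2% and 17.1% had all mutant arrays above all normal arrays from 1 to 4 months. Btc was among them at each age and Egfr NM_207655 at 3 and 4 months. At an adjusted p under 0.05 in limma, 0.321%, 3.45%, 12% and 12.9% of probe sets were called from 1 to 4 months. The genes were chosen with this contrast known, so these shares are given as context and nothing is read from them.

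**Figure D3:**
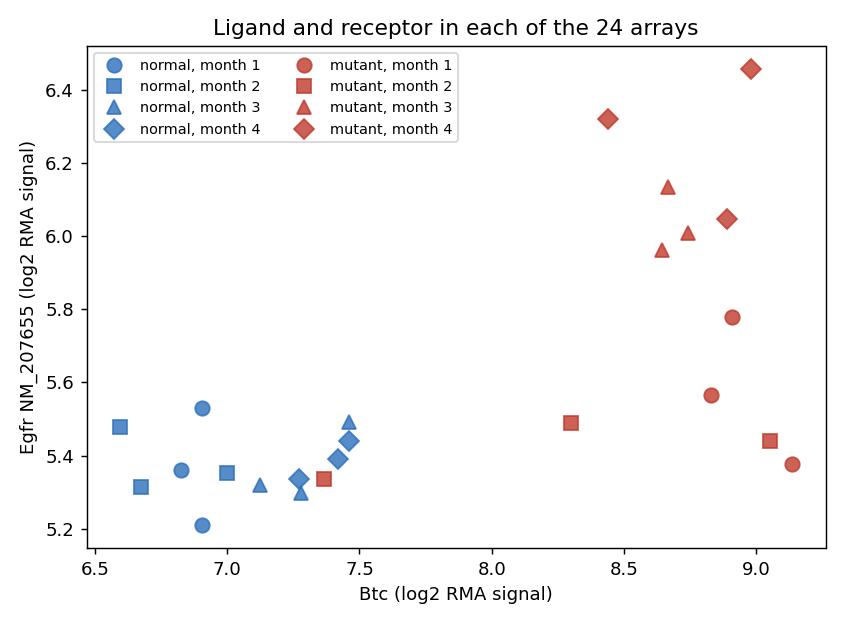
Egfr NM_207655 against Btc, both as log2 RMA signal, in each of the 24 arrays, with colour for genotype and symbol for age. Mutant arrays of 1 month lie to the right of the normal arrays at a similar height, those of 3 and 4 months lie to the right and above, and 1 mutant array of 2 months (Btc 7.37) lies beside the normal arrays.

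Age in normal retinas asks whether ligand and receptor change as the healthy retina matures. It was not the contrast behind the choice of these genes. However, the normal 1-month arrays entered that choice through Btc and are also the baseline here. The Btc age test is therefore not independent of the choice. In the fit of all 24 arrays neither ligand nor receptor passed the test. Btc read 6.60 to 7.00 in the 6 normal arrays of 1 and 2 months and 7.13 to 7.46 in the 6 arrays of 3 and 4 months, without overlap. This split was noticed after the values were seen and holds for 0.722% of probe sets. From 1 to 4 months Btc differed by 0.50 ± 0.25 in normal retinas (limma adjusted p = 0.684). The moderated F test over the 4 ages gave an adjusted p of 0.345, with an unadjusted p of 0.0531.

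The Btc test depended on which arrays set the spread. Fitted on the 12 normal arrays alone, F was 14.8 and the limma adjusted p was 0.0404. Without replicate 3 of the 2-month mutant group, which enters only through the shared spread, F was 7.27 and the adjusted p 0.0816. With all arrays 0.722% of probe sets passed the F test, and with the normal arrays alone 0.562%.

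Neither Egfr probe set passed in normal retinas. NM_207655 differed by 0.02 ± 0.11 from 1 to 4 months, with a 95% confidence interval of -0.20 to 0.25 (limma adjusted p = 1.00; F test adjusted p = 0.997). NM_007912 differed by -0.14 ± 0.11, with an interval of -0.38 to 0.10 (adjusted p = 0.959; F test adjusted p = 0.805). From 1 to 4 months in normal retinas limma called 0 of 1246 probe sets (0%), with 92 at an unadjusted p under 0.05.

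Whether ligand and receptor deviate together in single arrays was tested on values that the choice of the genes did not use. No pair passed. The tests with Btc rested largely on the 3 arrays of the 2-month mutant group, whose Btc spread (SD 0.84) was the widest. They therefore had little power to show a link and do not show that there is none. Over the 24 deviations from the group means, Btc and Egfr NM_207655 had a Pearson r of 0.09 (permutation within groups, 2-sided p = 0.643, adjusted p = 0.671 over 3 pairs) and a Spearman rho of 0.10 (permutation p = 0.713). Without the 2 arrays farthest from the median of Btc, r was -0.06, and without replicate 3 of the 2-month mutant group it was -0.10. Btc and Egfr NM_007912 gave r = -0.32 (permutation p = 0.201, adjusted p = 0.603) and rho = -0.36 (permutation p = 0.122), with r = -0.32 without the 2 farthest arrays. Both Egfr probe sets gave r = 0.10 with each other (permutation p = 0.671, adjusted p = 0.671) and rho = 0.09 (permutation p = 0.722), with r = 0.02 without 2 arrays.

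The other genes of the pathway came from lists of ligands, receptors, shedding enzymes, inhibitors, effectors, targets and glycan partners. Of 68 listed genes 17 were measured, by 19 probe sets. No gene listed for the shedding of ligands, for inhibition of the receptor or for its adaptors and effectors had a named probe set. Over the 4 ages 5 probe sets rose in mutant retinas, 2 fell and 12 did not pass, which is 36.8% called against 22.6% of all probe sets (13.8% higher and 8.83% lower). The median difference of the 19 was 0.03, against -0.03 over all probe sets. The lists were chosen with earlier results of these data known, so nothing is read from a share above that of all probe sets. The p-values of single listed genes carry the same limit. None passed at 1 or 2 months, 2 rose at 3 months (6.66% of all probe sets rose) and 3 rose at 4 months (9.47% of all), and each of these counts changed by more than 1.5 times under some alternatives given in the closing section.

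Both measured ligands besides Btc rose over the 4 ages, of 10 listed. Areg (amphiregulin), a ligand of the EGF receptor, was 1.27-fold higher (0.35 ± 0.07, n = 24 arrays, limma adjusted p = 0.0015). At 1 month Areg read 4.84, 4.96 and 5.21 in mutant and 4.87, 4.63 and 5.02 in normal retinas, and at 4 months 5.28, 5.37 and 4.90 against 4.71, 4.68 and 4.67. The groups overlapped at 1 month and not at 4 months.

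Hbegf (heparin-binding EGF-like growth factor), which binds the EGF receptor and ErbB4, was 1.18-fold higher (0.24 ± 0.06, limma adjusted p = 0.00608). With quantile normalization applied again the Hbegf difference was 0.13 (limma adjusted p = 0.0299). At 1 month Hbegf read 6.66, 6.69 and 6.88 in mutant and 6.76, 6.33 and 6.71 in normal retinas, and at 4 months 7.10, 7.14 and 6.75 against 6.61, 6.66 and 6.47. The groups again overlapped at 1 month and not at 4 months.

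In size and timing these ligands stood apart from Btc in the values, though no test was made of that difference. The Areg difference was 0.16, 0.30, 0.44 and 0.50 from 1 to 4 months and passed at 4 months (adjusted p = 0.0259). The Hbegf difference was 0.15, 0.14, 0.25 and 0.42 and passed at 4 months (adjusted p = 0.0235). Whether either difference changed with age did not pass an F test in limma (adjusted p = 0.690 for Areg and 0.668 for Hbegf).

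Of the 3 other ErbB receptors listed, Erbb3 and Erbb4 were measured. Erbb3, a receptor with a weak kinase that binds neuregulins, fell by 0.12 ± 0.04 on the log2 scale over the 4 ages (limma adjusted p = 0.0238), and passed at no single age. It was dim (mean 4.34), and its call ended without mutant 1-month replicate 3 (adjusted p = 0.0521). Erbb4, a receptor of neuregulins and of betacellulin, differed by -0.05 ± 0.04 (adjusted p = 0.400) and was dimmer still (mean 3.39, above 17.2% of probe sets).

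Junb, an immediate early transcription factor that growth factor signals induce, was the only measured gene of 8 listed targets. Junb rose over the 4 ages by 0.70 ± 0.12, a 1.63-fold higher signal (limma adjusted p = 0.000136). At 1 month it read 7.14, 6.94 and 6.66 in mutant and 6.05, 5.90 and 5.78 in normal retinas, without overlap. Its differences were 1.00, 0.63, 0.70 and 0.48 from 1 to 4 months, and none passed at a single age (adjusted p from 0.0525 to 0.204). In the 2-month mutant array with the lowest Btc, Junb read 6.13, against 6.87 and 6.85 in the other mutant arrays of that age.

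Glycan partners of the receptor were measured for all 12 genes listed, by 14 probe sets. Over the 4 ages 2 rose, 1 fell and 11 did not pass, so 21.4% were called, which is near the 22.6% of all probe sets and is no result about these partners as a group. Fut8, which adds the core fucose to N-glycans and is known to act on EGF receptor binding, rose by 0.25 ± 0.05 (limma adjusted p = 0.00148). Its difference was 0.01, 0.21, 0.33 and 0.44 from 1 to 4 months and passed at 3 months (adjusted p = 0.0413) and at 4 months (0.00624). These are the 2 ages at which Egfr NM_207655 stood apart, and also those with most calls over all probe sets. Of all probe sets 12% and 12.9% were called at 3 and 4 months, against 0.321% and 3.45% at 1 and 2 months. Whether the Fut8 difference changed with age did not pass an F test in limma (adjusted p = 0.335).

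Cd44, a hyaluronan receptor that is known to associate with ErbB receptors, rose by 1.01 ± 0.25 (limma adjusted p = 0.00581). Where Grifin was above 10 it read 8.19 to 9.23, and without those 3 arrays its adjusted p was 2.30e-06. Mgat1, which starts the branching of N-glycans, fell by 0.30 ± 0.08 (adjusted p = 0.0126).

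Among the other glycan partners Muc1, a membrane mucin known to bind the EGF receptor, passed only at 3 months (0.52 ± 0.17, limma adjusted p = 0.0498). Mgat5, whose branched N-glycans are bound by galectins, differed by -0.06 ± 0.05 over the 4 ages (adjusted p = 0.386). Lgals3 (galectin-3) differed by -0.01 ± 0.18 (adjusted p = 0.960), by a probe set that may share probes with other transcripts. St3gal5, which makes the ganglioside GM3, a lipid known to dampen the EGF receptor, differed by 0.19 ± 0.07 (adjusted p = 0.0698).

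**Figure D4:**
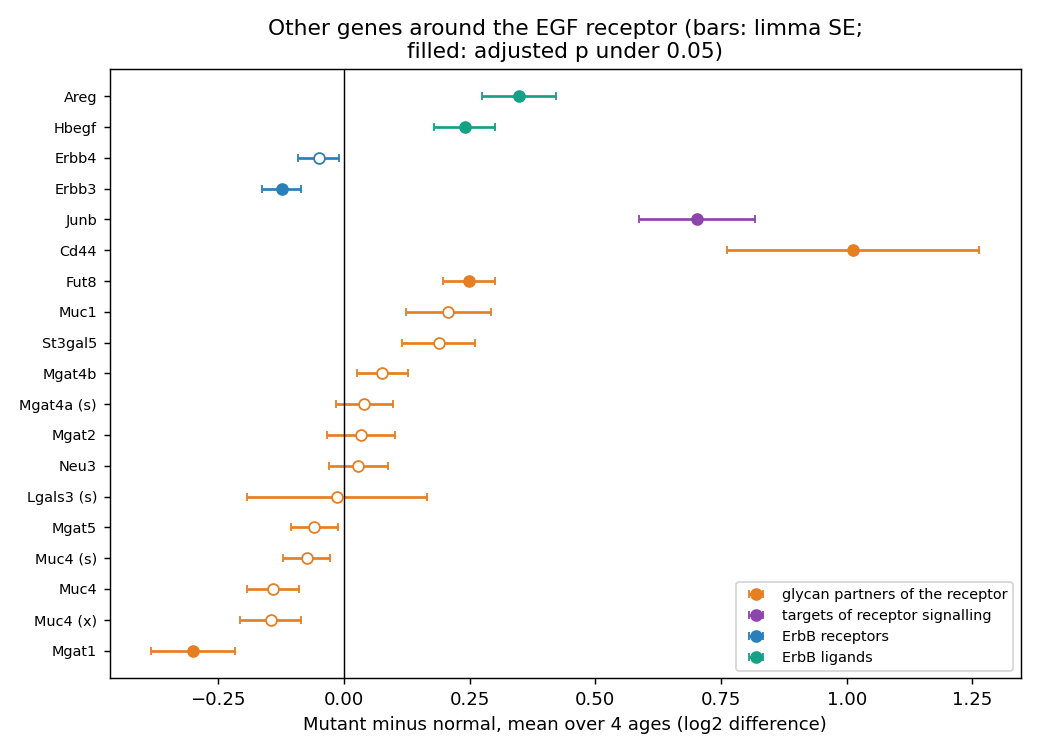
Mutant minus normal log2 difference, averaged over the 4 ages, of each of the 19 probe sets of the pathway lists, with limma standard errors, colour for the list and filled points for an adjusted p under 0.05. Filled points to the right of 0 are Areg, Hbegf, Junb, Cd44 and Fut8, and those to the left are Erbb3 and Mgat1; letters in brackets mark probe sets that may share probes with other transcripts.

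Genes with a pattern most like that of Btc were looked for by Pearson r over arrays, as a description without a test. Over all 24 arrays these were Adgre1 (r = 0.89), B3galt1, a galactosyltransferase (0.88), Siglech, a microglial siglec (0.88), Sulf1 (0.85) and Junb (0.84). The probe sets of B3galt1 and Siglech named here may share probes with other transcripts. The points share the split into genotypes, which any gene with a steady genotype difference follows. Without replicate 3 of the 2-month mutant group 4 of these 5 stayed among the first 5. Over the 12 mutant arrays alone the closest were Galnt7 (0.78) and Cd164 (0.76), and this list rested on that array. Without it r was 0.48 for Galnt7 and 0.64 for Cd164, and 0 of the first 5 were shared.

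For Egfr NM_207655 the closest patterns over 24 arrays were those of the Wnt receptor Fzd7 (r = 0.89), the interleukin-1 receptor Il1r1 (0.87), the adhesion molecule Icam1 (0.86), the galactosyltransferase B4galt5 (0.85) and the sulfotransferase Chst10 (0.85). Il1r1 differed between genotypes by 0.18, 0.11, 0.66 and 0.52 from 1 to 4 months. Over the 12 mutant arrays they were the co-receptor Gfra2 (0.94), the uronyl sulfotransferase Ust (0.93 by each of 2 probe sets), the transcription factor Hes1 (0.93) and Fgf10 (0.92). A high r over mutant arrays does not require a genotype difference. From 1 to 4 months that of Gfra2 was -0.03, -0.04, 0.23 and 0.60, and that of Fgf10 was 0.02, 0.02, -0.02 and 0.04. Without replicate 3 of the 2-month group the first 5 probe sets were the same. Those of Gfra2, Ust and Fgf10 are probe sets that may share probes with other transcripts. For Egfr NM_007912 the highest r over 24 arrays was 0.56, for Pdgfrb, a receptor of pericytes.

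Markers of other cell types moved with genotype as well. Of 12 markers of microglia and macrophages 5 were measured, by 7 probe sets, and 6 probe sets rose over the 4 ages, against 13.8% of all probe sets that rose and 8.83% that fell. Their summed signal (log2 of the sum) lay between 8.77 and 9.72 in mutant arrays and between 8.14 and 8.48 in normal ones. The genotypes stood apart at 1 month already (8.77 to 9.04 against 8.14 to 8.48). Siglech accounted for several of the 7 probe sets, including dim ones and ones that may share probes with other transcripts. Of 17 markers of reactive Müller glia and astrocytes only Cd44, Fgf2, Icam1 and Vcam1 were measured and all 4 rose. Their sum lay between 8.19 and 9.64 in mutant arrays and between 7.54 and 9.01 in normal ones. The genotypes stood apart at 1 month (8.63 to 8.76 against 7.90 to 8.18), 3 months (8.60 to 9.36 against 7.54 to 8.10) and 4 months (9.26 to 9.42 against 7.65 to 8.61). At 2 months the genotypes overlapped (8.19 to 9.64 against 7.71 to 9.01). This sum is set mostly by Cd44 and Vcam1, which were brighter than Fgf2 and Icam1. Gfap, Vim and Glul had no named probe set. The part of microglia, glia or lost rods in the Btc and Egfr differences was not tested. Of 8 endothelial and pericyte markers 4 were measured and 2 rose, and of 7 markers of pigment epithelium, choroid and connective tissue 3 were measured and 0 rose. These 3 (Bgn, Dcn and Lum) were uneven between arrays, with sums of 6.11 to 7.89 in normal and 6.14 to 7.32 in mutant arrays. The sum was highest in normal 2-month replicates 2 and 3 (7.40 and 7.89) and mutant 4-month replicate 3 (7.32). Dcn read 6.45, 6.90 and 6.51 there, so other tissue may differ between arrays. Gnb1 fell in mutant retinas, and L1cam, the only one of 11 markers of inner retinal neurons measured, did not pass.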

How the data were processed

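The values analysed were log2 RMA signals that the authors deposited for 1246 probe sets in 24 arrays; RMA is named in the submitters' processing notes, and its version, settings and any filter are not given in the sources used here. Biotin-labelled cRNA from total RNA extracted with Trizol was hybridised, per the labels' protocols. Nothing was scaled again. Transcript accessions in the probe set names matched a RefSeq table (GRCm38.p6) for 963 probe sets and 909 genes. With limma 3.58.1 in R 4.3.3, 1 model held the 8 group means and all 24 arrays (16 residual and 4.37 prior degrees of freedom). Benjamini-Hochberg adjustment ran over all 1246 probe sets within a contrast, at a threshold of 0.05. An exact test of 3 against 3 arrays has 0.1 as its smallest p, which is why limma's shared spread is needed at single ages. The fit was tested on simulated data. Correlations of deviations used 100000 permutations within groups. The number of arrays limits the precision.

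Members, lists, tests and alternatives were chosen with earlier results of these data known. Named genes were the probe sets of Btc and Egfr, list members that passed over 4 ages (up to 4 a list), Grifin and marker genes that describe single arrays, and the 5 closest patterns. Outside this rule, Muc1 was named after its values were seen, and Erbb4, Mgat5, Lgals3 and St3gal5 for their known roles. Alternatives were other scalings, a filter on dim probe sets, other variance models, array weights, fewer arrays, the replicate number as a block, arrays or covariates for Grifin and Dcn, and each array left out.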

Additional observations from a re-analysis of the deposited data

How the results depend on the processing

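The Btc and Egfr differences between genotypes moved by less than 1 SD of the groups compared under every alternative run. For Btc at 2 months that SD was itself wide (0.62), and the range of 1.00 to 1.92 exceeds the SD pooled over all groups (0.34) in both directions. The difference was 1.00 without the 3 Grifin-high arrays, 1.08 without mutant replicate 2 and 1.92 without mutant replicate 3. The pathway count over the 4 ages was 7 and stayed between 6 and 10. Counts at single ages were less stable. At 1 month the count of 0 became 1 with each array centred, with quantile normalization again, with dim probe sets left out and with array weights, became 2 with only the arrays compared, and was 0 to 1 with an array left out. At 2 months the count of 0 became 1 with array weights (0 to 1 with an array left out). At 3 months the count of 2 became 4 with each array centred, 1 with an intensity trend and 0 with array weights (0 to 4 with an array left out). At 4 months the count of 3 became 6 with array weights and 1 with only the arrays compared (1 to 4 with an array left out). The F test of Btc in normal retinas passed with the 12 normal arrays alone (F = 14.8, limma adjusted p = 0.0404), and its adjusted p was 0.0816 to 0.630 with an array left out. The change of Egfr NM_207655 from 1 to 4 months in normal retinas was -0.011 with each array centred and -0.057 to 0.10 with an array left out, never past the threshold. The r of Btc and Egfr NM_207655 was -0.063 without the 2 farthest arrays and -0.10 to 0.19 with an array left out. Leaving mutant 2-month replicate 3 out of the closest patterns was chosen after seeing the data. The causes were not tested. Equal replicate numbers did not pair the arrays by the rule used, since r of deviations was above 0.1 in 3 of 12 pairs. These were the 3 pairs of 2 months (0.33, 0.66 and 0.25), where replicate 2 of both genotypes was Grifin-high, so equal numbers went together at that age. With the replicate number as a block the pathway count over the 4 ages was 7, and the Btc F test had F = 2.77 (limma adjusted p = 0.416). No call given above over the 4 ages or in normal retinas changed with that block. The block was common to all ages, so it could not model a link seen only at 2 months. Calls of single pathway genes at single ages were followed only as counts. Background signal is unknown, which limits what the dim probe sets of Egfr NM_007912, Erbb3 and Erbb4 can show.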
